A study of Rattus norvegicus with 4 samples.

Results

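The cytosolic ribosomal protein genes were read in RNA-seq libraries from rat ear skin. These genes encode the proteins that, together with ribosomal RNA, make up the large and the small subunit of the ribosome. The 83 genes were taken by symbol (Rpl and Rps names, Rplp0 to Rplp2, and Rpsa) from the protein-coding entries of a deposited table of 54532 genes, and 51 of them belong to the large and 32 to the small subunit. The symbols were matched by name, and the family itself was chosen by the raw counts of some members, which stood near 0 in some libraries and far higher in others, so these switches are described here and not tested.

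The Fgf7 overexpression group was ear skin of Sprague Dawley rats given an adeno-associated virus with Fgf7 (AAV-Fgf7), and the control group was ear skin given a control virus (AAV-control, labelled wt). Each of 2 rats gave 1 ear to each virus, and all tissue was taken on day 3, so each group held 2 libraries and the libraries of a rat came from the same animal. Adeno-associated virus is a small DNA virus used to carry genes into tissue, and Fgf7 encodes a growth factor that acts on epithelial cells. The sources used here name no promoter for Fgf7 in the virus. The labels and the study design disagree on which ear received which virus, and the same column is named for both AAV-Fgf7 samples, so the AAV-Fgf7 column of rat 2 was matched by its number. The rat reads are listed under mouse gene models.

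Fgf7 had 454 and 1429 raw counts in the AAV-Fgf7 ears of rats 1 and 2, against 94 and 110 in the AAV-control ears. Library totals lay between 1299136 and 1601321 counts. Markers of several tissues were present in every library and varied. All 10 skeletal muscle markers had counts, and they summed to 28176 and 13684 CPM (counts scaled to 1e+06 per library) in AAV-Fgf7 ears and to 13023 and 52259 CPM in AAV-control ears. The hair follicle list (9 of 10 with a count, Krt35 at 0) summed to 3853 and 142 CPM in AAV-Fgf7 ears and to 51.6 and 1181 CPM in AAV-control ears. All 6 basal keratinocyte markers had counts, with sums of 1460 and 3098 CPM in AAV-Fgf7 ears and 1109 and 929 CPM in AAV-control ears. Of 6 dermal fibroblast markers 4 had counts, while Dcn and Lum were listed at 0 in every library. The list summed to 39857 and 27161 CPM in AAV-Fgf7 ears and to 34100 and 39112 CPM in AAV-control ears.

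Ribosomal proteins are needed in near-equal amounts, and their genes are among the most abundantly transcribed in mammalian cells. Their messenger RNAs begin with a run of pyrimidines, the terminal oligopyrimidine (TOP) tract, through which the mTOR pathway sets their translation together. Mammalian genomes also hold many processed pseudogenes of ribosomal proteins, which are intron-less copies of their messenger RNAs with near-identical sequence. Reads of a ribosomal protein transcript can therefore be listed under the protein-coding gene or under a copy.

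Most well-counted members stood at near-equal levels in all 4 libraries, whichever virus the ear had received. Of the 83 genes, 69 had a count, 46 reached 12 counts in at least 1 library, and 24 had 100 counts or more in every library. Rps27, a zinc-binding protein of the small subunit, stood at 5251 and 4798 FPKM (counts scaled by gene length and library size, as deposited) in AAV-Fgf7 ears and at 5928 and 5320 FPKM in AAV-control ears. It was the highest member per length by counts under protein-coding entries, and both of its AAV-Fgf7 values lay below both AAV-control values. Reads listed under pseudogene entries are not in these FPKM values, so their order need not be that of the transcripts. Rps4x, the X-linked form of protein S4, stood at 1052 and 984 FPKM in AAV-Fgf7 ears, against 1050.1 and 1098.3 FPKM in AAV-control ears. Rplp2, an acidic protein of the stalk that recruits elongation factors, stood at 744 and 833 FPKM in AAV-Fgf7 ears and 809 and 811 FPKM in AAV-control ears. Rpl10, a protein that joins the large subunit late and reaches towards its catalytic centre, stood at 694 and 789 FPKM in AAV-Fgf7 ears and 831 and 745 FPKM in AAV-control ears. In each of the last 3 genes the 2 groups overlapped, and the order of Rplp2 and Rpl10 lay within their spread. Among the 24 genes the median ratio of the highest to the lowest library was 1.21, and 19 of them spanned less than 1.5-fold. Rpsa spanned 91.4 to 427 CPM and Rpl32 212 to 640 CPM. Asking for 100 counts in every library leaves out any gene that falls near 0. The median absolute log2 fold change between the viruses was 0.11 in the 24 genes. It was 0.13 in the 1870 tested genes with such counts, so near-equal levels are not particular to the family.

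**Figure D1:**
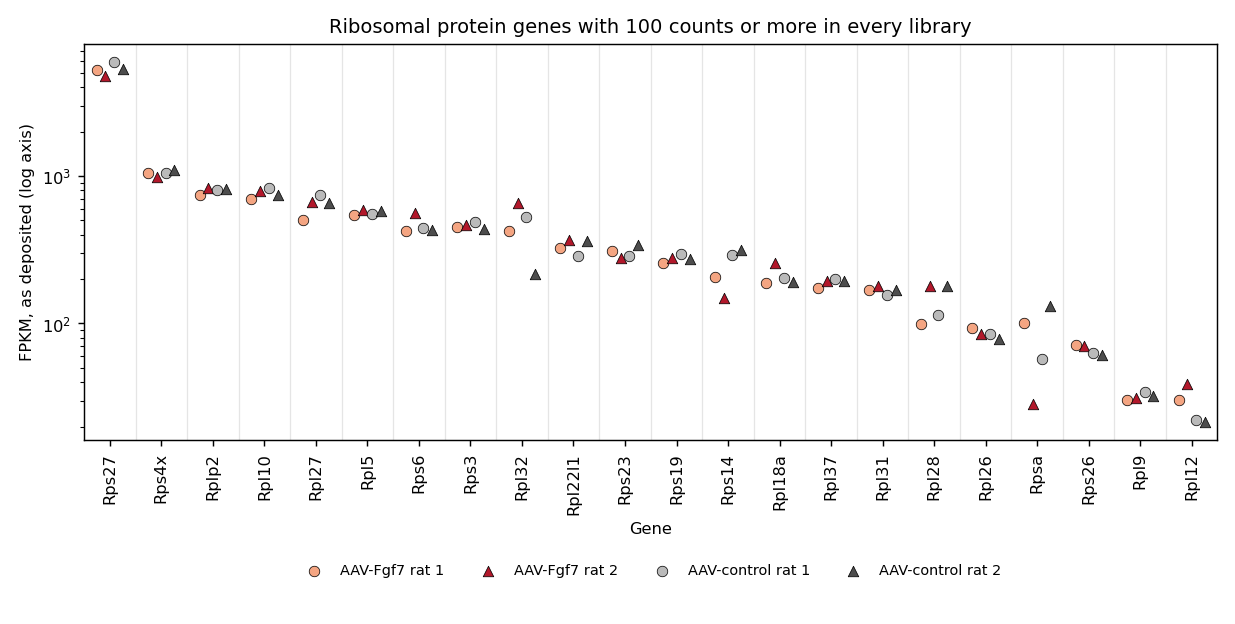
FPKM (log axis) of 22 of the 24 ribosomal protein genes with 100 counts or more in every library, ordered by mean, with 1 point per library (red for AAV-Fgf7, grey for AAV-control, paler circles for rat 1, darker triangles for rat 2). The 4 points of most genes lie close together, while Rpsa and Rpl32 are spread.

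Summed over the 83 genes, the level was 24075 CPM in the AAV-Fgf7 ear of rat 1 and 26161 CPM in that of rat 2, against 25931 and 25752 CPM in the AAV-control ears (CPM scaled by TMM factors). The AAV-control sums lay between the 2 AAV-Fgf7 sums. As a share of all counts the members held 2.38% (95% exact Clopper-Pearson interval 2.35% to 2.40%) and 2.67% (2.64% to 2.69%) in AAV-Fgf7 ears, and 2.63% (2.60% to 2.66%) and 2.42% (2.39% to 2.44%) in AAV-control ears. These intervals cover counting error only. In tissue such a share cannot tell fewer cells of a type from less RNA per cell.

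No ribosomal protein gene differed between AAV-Fgf7 and AAV-control ears by the edgeR quasi-likelihood test over all genes. Of 42 members with enough counts for the test, 0 had an adjusted p under 0.05, against 0 of 6370 genes tested (0%). Their log2 fold changes were above 0 for 18 and below 0 for 24, with a median of -0.05 beside -0.02 over all genes tested, of which 47.8% were above 0. At an unadjusted p under 0.05 stood 4 members, beside 2.32% of all genes tested, and DESeq2 called 0 members. On the higher side stood 3 of the 4, beside 1.71% of all genes tested, and on the lower side 1, beside 0.612%. Both AAV-Fgf7 libraries lay above both AAV-control libraries in 7 of the 42, beside 14.8% of all genes tested, and below them in 8, beside 13.3%. For 2 libraries against 2, shuffled without regard to the rat, the smallest two-sided p of the exact permutation test is 0.333. Shuffling within each rat would leave fewer arrangements. Both groups come from the same 2 rats, and the main edgeR fit did not use this pairing. Its p-values therefore measure the spread between these samples, with differences between the rats included.

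The 4 members of lowest p were Rps2, Rpl30 and Rpl12 on the higher side and Rps14 on the lower. Rps2, a protein at the entrance of the messenger RNA channel, had 23 and 28 counts in AAV-Fgf7 ears and 1 and 2 counts in AAV-control ears, a log2 fold change of 3.96 (SE 0.63). Rpl30, a large-subunit protein, had 32 and 15 counts in AAV-Fgf7 ears and 0 and 4 in AAV-control ears (log2 fold change 3.48, SE 0.99). In both genes every AAV-Fgf7 library lay above every AAV-control library, on few counts. Rpl12, a protein at the base of the stalk, stood at 112 and 143 CPM in AAV-Fgf7 ears and at 81.2 and 78.5 CPM in AAV-control ears, a log2 fold change of 0.67 (SE 0.23). Rps14, a protein of the platform of the small subunit, stood at 290 and 210 CPM in AAV-Fgf7 ears and at 406 and 444 CPM in AAV-control ears, a log2 fold change of -0.77 (SE 0.23). Also on the lower side, Rpl22, an RNA-binding protein of the large subunit, had 7 and 0 counts in AAV-Fgf7 ears and 17 and 18 in AAV-control ears (log2 fold change -2.30, SE 1.02). Each of these 5 genes had an edgeR adjusted p of 0.9996. Without the AAV-control library of rat 2, edgeR called Rpl30 (adjusted p = 0.0350) and Rpl10a (adjusted p = 0.0166), and without that of rat 1 it called Rpl32 (log2 fold change 1.32, adjusted p = 0.0446), in fits that rest on a lone AAV-control library.

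Counts of 7 genes switched between libraries, here called an on-off pattern, and the side of the switch followed the virus in 1 gene, the rat in 3, neither in 1 and a single library in 2. The pattern was taken as a gap of at least 4-fold between neighbouring libraries in order of CPM, with every library set to at least 3 counts. Among the 46 members that could show it (12 counts or more in a library), 7 did, or 15.2%, beside 105 of 6274 protein-coding genes (1.67%). By virus it was 1 member beside 0.0956% of protein-coding genes, by rat 3 beside 0.0638%, by neither 1 beside 0.414%, and by a single library 2 beside 1.1%. Since the family was put forward for these switches, nothing is read from these shares. A count of 3 corresponds to 1.87 to 2.31 CPM in these libraries. Just inside the 4-fold limit were Rps16 with a gap of 5.50-fold and Rps2 with 7.13-fold, and just outside were Rpl30 with 3.90-fold and Rps28 with 3.72-fold.

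**Figure D2:**
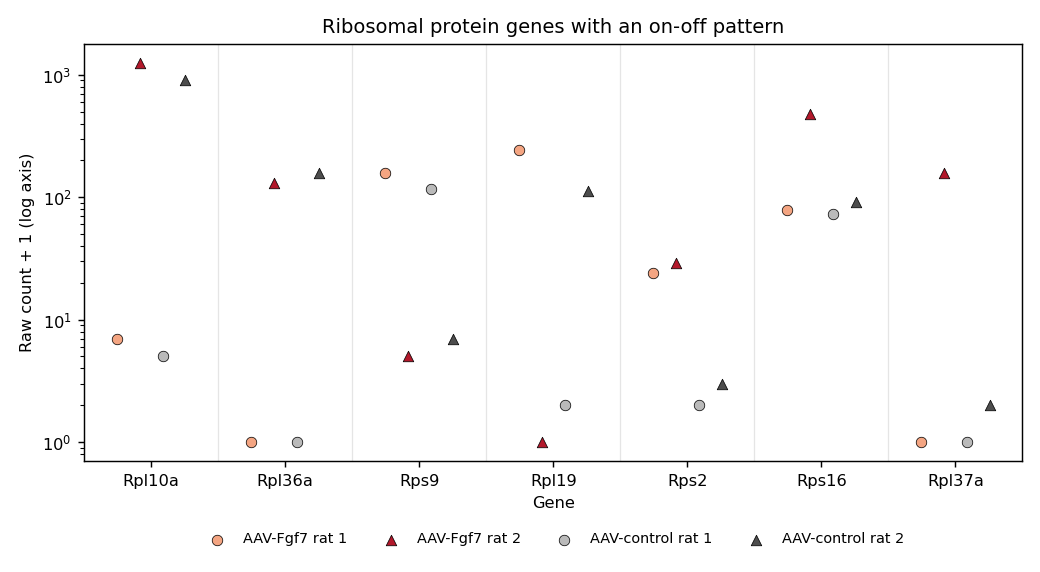
Raw count + 1 (log axis) of the 7 ribosomal protein genes with an on-off pattern, with 1 point per library (red for AAV-Fgf7, grey for AAV-control, paler circles for rat 1, darker triangles for rat 2). In Rpl10a, Rpl36a and Rps9 the circles and triangles part, in Rps2 the colours part, in Rpl19 neither parts, and in Rps16 and Rpl37a 1 library (AAV-Fgf7, rat 2) stands alone.

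A set of 3 genes switched with the rat and not with the virus. This rests on the AAV-Fgf7 column of rat 2 being matched by its number. Were the AAV-Fgf7 columns exchanged, these genes would switch by neither label and Rpl19 would switch by rat. Rpl10a encodes the protein of the L1 stalk, which moves spent transfer RNA out of the ribosome, and it is listed as ENSMUSG00000037805 on mouse chromosome 17 from 28328471 to 28331033, plus strand. It had 1250 counts in the AAV-Fgf7 ear and 913 in the AAV-control ear of rat 2, against 6 and 4 in those of rat 1. The ratio of rat 2 to rat 1 was 201 (95% counting interval 109 to 419), and the ears of a rat stood near each other. Rpl36a, a large-subunit protein near the exit site of transfer RNA, is listed as ENSMUSG00000079435 on mouse chromosome X from 134585654 to 134588062, plus strand. It had 129 and 157 counts in the AAV-Fgf7 and AAV-control ears of rat 2, and 0 in both ears of rat 1. Rat 2 was at least 44.2-fold higher when each library of rat 1 was set to 3 counts. Rps9, a protein of the messenger RNA channel, is listed as ENSMUSG00000006333 on mouse chromosome 7 from 3703993 to 3706897, plus strand. It switched the other way, with 156 counts under AAV-Fgf7 and 116 under AAV-control in rat 1, against 4 and 6 counts in rat 2, a ratio of rat 1 to rat 2 of 29.3 (15.7 to 61.9). These 3 were among 4 protein-coding genes in all with an on-off pattern by rat. Between the viruses the log2 fold changes were 0.51 (SE 2.10) for Rpl10a, -0.24 (SE 1.88) for Rpl36a and 0.31 (SE 1.54) for Rps9 in the fit without the rat. With the rat as a block, edgeR gave 0.50 (SE 0.28) for Rpl10a, -0.22 (SE 0.49) for Rpl36a and 0.09 (SE 0.41) for Rps9, and called 0 of them.

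Rpl19 switched by neither virus nor rat. It encodes a large-subunit protein that bridges to the small subunit and is listed as ENSMUSG00000017404 on mouse chromosome 11 from 98026710 to 98030492, plus strand. In rat 1 its counts were 244 under AAV-Fgf7 and 1 under AAV-control, and in rat 2 they were 0 under AAV-Fgf7 and 111 under AAV-control. The high libraries were thus the AAV-Fgf7 ear of rat 1 and the AAV-control ear of rat 2, and their ratio to the others was 336 (95% counting interval 59.9 to 13304). The same 2 libraries held the higher sums of the skeletal muscle and hair follicle markers given above, and the part of these tissues in the Rpl19 counts was not tested. The log2 fold change between the viruses was 1.19 (SE 1.88) by edgeR and -0.52 by limma-voom, so its sign depended on the tool.

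Rps16 and Rpl37a were each high in a single library, the AAV-Fgf7 ear of rat 2. Rps16, whose tail reaches the transfer RNA in the small subunit, is listed as ENSMUSG00000037563 on mouse chromosome 7 from 28350652 to 28353155, plus strand. It had 78 and 476 counts in AAV-Fgf7 ears and 72 and 90 in AAV-control ears, and the ratio of the high library to the other 3 was 5.82 (95% counting interval 4.97 to 6.82). Rpl37a, a zinc-binding protein of the large subunit, is listed as ENSMUSG00000046330 on mouse chromosome 1 from 72711290 to 72713813, plus strand. It had 0 and 158 counts in AAV-Fgf7 ears and 0 and 1 in AAV-control ears. The high AAV-Fgf7 library also held the highest sum of basal keratinocyte markers, 3098 CPM, and the part of that in these counts was not tested. Rps2, the gene that switched with the virus, is listed as ENSMUSG00000044533 on mouse chromosome 17 from 24718116 to 24721929, plus strand. Its AAV-Fgf7 libraries held 16.8 times the level of its AAV-control libraries (95% counting interval 5.42 to 83.9).

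**Figure D3:**
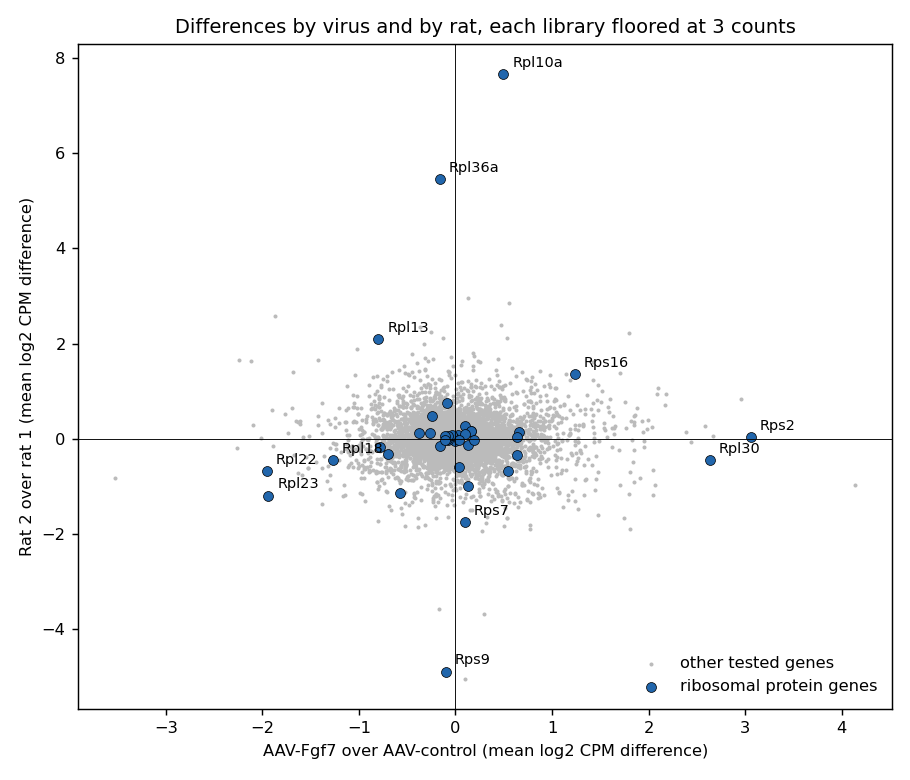
Difference between AAV-Fgf7 and AAV-control (horizontal) and between rat 2 and rat 1 (vertical) as mean log2 CPM with each library set to at least 3 counts, for 42 ribosomal protein genes (blue) and the other genes among the 6370 tested (grey). Rpl10a, Rpl36a and Rps9 lie far from 0 on the vertical axis only, Rps2 and Rpl30 on the horizontal axis only.

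Runs of pyrimidines lay near the annotated start of all 7 switching genes and of most well-counted ones. They are shown to let the 2 kinds be set side by side, as RefSeq sequence of assembly GRCr8, 5′ to 3′ on the gene's strand, in windows of 30 bases with the longest unbroken run of C or T in capitals. The 7 switching genes come first, and Rps27 and Rps3 follow as steadily counted ones.
Rpl10a, chr20:6390519-6390548, plus strand: aaaccttctgCCTTCTTTTCCggttcccgc
Rpl36a, chrX:102059454-102059483, plus strand: ctgctctagCCTCTCTCTTTCTgagctggt
Rps9, chr1:74430421-74430450, minus strand: cggcggccacgTTTCTCTTTgtcacgggcc
Rpl19, chr10:83519053-83519082, plus strand: accagcaagCTCTTTCCTTTCgctgctgcg
Rps16, chr1:92770663-92770692, plus strand: ggccccaagCTTTCCTTTTCCggtggcggc
Rpl37a, chr9:81748081-81748110, plus strand: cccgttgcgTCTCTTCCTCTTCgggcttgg
Rps2, chr10:14251824-14251853, plus strand: cagcgCCTCCCTCTTCTTTTTCTTCgggaa
Rps27, chr2:177964590-177964619, minus strand: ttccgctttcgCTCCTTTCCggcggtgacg
Rps3, chr1:163195776-163195805, minus strand: gcgagccaCTTCCTTTCCTTTCagcggcgc

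The first base of the run, counted from 1 at the annotated start, lay at 15 in Rpl36a and Rps16, at -19 in Rps2 and at -21 in Rps3, and in the other 5 genes it lay between -4 and -1. The run of Rps3 ended before the annotated start, so a marked run is not by itself a TOP tract. RefSeq gave 66 promoters for 65 of the 83 symbols, with 2 for Rps27a. A run of at least 7 letters that are each C or T, searched on the gene's strand only and touching the 15 bases on either side of the annotated start, was present in 54 of the 66 promoters (81.8%), or 53 of the 65 symbols, beside 24.7% of 33469 rat promoters. All 7 switching genes held one, as did 15 of the 19 genes with sequence and 100 counts or more in every library. The median run was 10 bases in the family and 5 bases over all promoters.

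More counts of ribosomal proteins lay under pseudogene entries than under the protein-coding ones. The table named 389 pseudogene entries for 66 of the 83 proteins, and 106 of them had a count. They held 39356 and 43353 counts in AAV-Fgf7 ears and 37731 and 42264 in AAV-control ears, against 34090 and 37785 in AAV-Fgf7 ears and 34152 and 38691 in AAV-control ears for the 83 genes. The largest entry, Rps19-ps6, held 14881 and 15876 of these counts in AAV-Fgf7 ears and 14507 and 15820 in AAV-control ears. Without that entry the protein-coding genes held more counts in every library. Pseudogenes whose entry names no protein were not assigned. Of the 64 such entries with 12 counts or more in a library, 0 had an on-off pattern, beside 1.5% of the 533 entries of all biotypes other than protein-coding, a share too low to set the 0 apart. Of the 14 genes listed at 0 in every library, Rpl7a, Rpl34, Rpl21, Rps15a, Rpl15 and Rpl23a had counts under their pseudogenes. Rpl21, for example, had 1530 and 1557 such counts in AAV-Fgf7 ears and 1591 and 1730 in AAV-control ears. The other 8 (Rpl35, Rps21, Rpl29, Rpl38, Rpl10l, Rpl39l, Rpl24 and Rpl36) had none under either, which does not show that their transcripts were absent. Rps19, chosen after its values were seen, had between 10.5% and 11.3% of its summed counts under the protein-coding gene in each of the 4 libraries (outermost bounds of the 95% exact intervals 9.99% and 11.8%), so its split was alike in every library.

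When each gene was summed with its named pseudogenes, 5 of the 7 on-off patterns were gone. Rps9 and Rpl37a had 0 named pseudogene entries to add, so their patterns could only stay. Entries that name no protein were left out of all sums. In Rps2, Rpl36a and Rpl19 the protein-coding gene held at most 0.31%, 5.55% and 15.7% of the sum in any library. Their near-steady pseudogene counts thus fixed the loss of the pattern in advance. The pseudogenes of Rpl10a held 1069 and 873 counts in AAV-Fgf7 ears and 1028 and 772 in AAV-control ears, against at most 1250 for the gene. In the libraries where Rps16 was low its pseudogene held 359 to 542 counts, against 476 for the gene in its high library. Such counts kept both sums under a 4-fold gap, so the loss was fixed there too. The sum for Rpl19 was 1095 and 1133 CPM in AAV-Fgf7 ears and 1153 and 1143 CPM in AAV-control ears, a span of 1.05-fold. The sum for Rpl36a was 1936 and 2037 CPM in AAV-Fgf7 ears and 1743 and 1882 CPM in AAV-control ears, and Rpl36a-ps2 alone held most of it, with 2691 and 2742 counts in AAV-Fgf7 ears and 2245 and 2608 in AAV-control ears. The sum for Rps2 was 5927 and 6315 CPM in AAV-Fgf7 ears and 5538 and 5309 CPM in AAV-control ears. The few counts of the protein-coding gene that switched with the virus were a very small part of it. Both AAV-Fgf7 sums lay above both AAV-control sums for Rps2 and Rpl36a, and below them for Rpl19. These differences between sums were not tested.

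Rps16 and its pseudogene Rps16-ps2 were mirror images. The pseudogene had 459 and 113 counts in AAV-Fgf7 ears and 359 and 542 in AAV-control ears, lowest in the library where the protein-coding gene was highest. The protein-coding gene held 14.5% (95% exact interval 11.7% to 17.8%) of the summed counts in the AAV-Fgf7 ear of rat 1 and 80.8% (77.4% to 83.9%) in that of rat 2, against 16.7% (13.3% to 20.6%) and 14.2% (11.6% to 17.2%) in the AAV-control ears. Their sum, 379 and 408 CPM in AAV-Fgf7 ears and 327 and 421 CPM in AAV-control ears, spanned 1.29-fold. Rpl10a-ps1 was also lower in the rat where Rpl10a was high. It had 772 and 667 counts in the AAV-Fgf7 and AAV-control ears of rat 2, against 969 and 930 in those of rat 1. Rpl10a differed from Rps16 in its sum. With all named pseudogenes the sum was 1470 and 1122 CPM in rat 2, against 759 and 784 CPM in rat 1. The sums of the rats did not overlap.

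**Figure D4:**
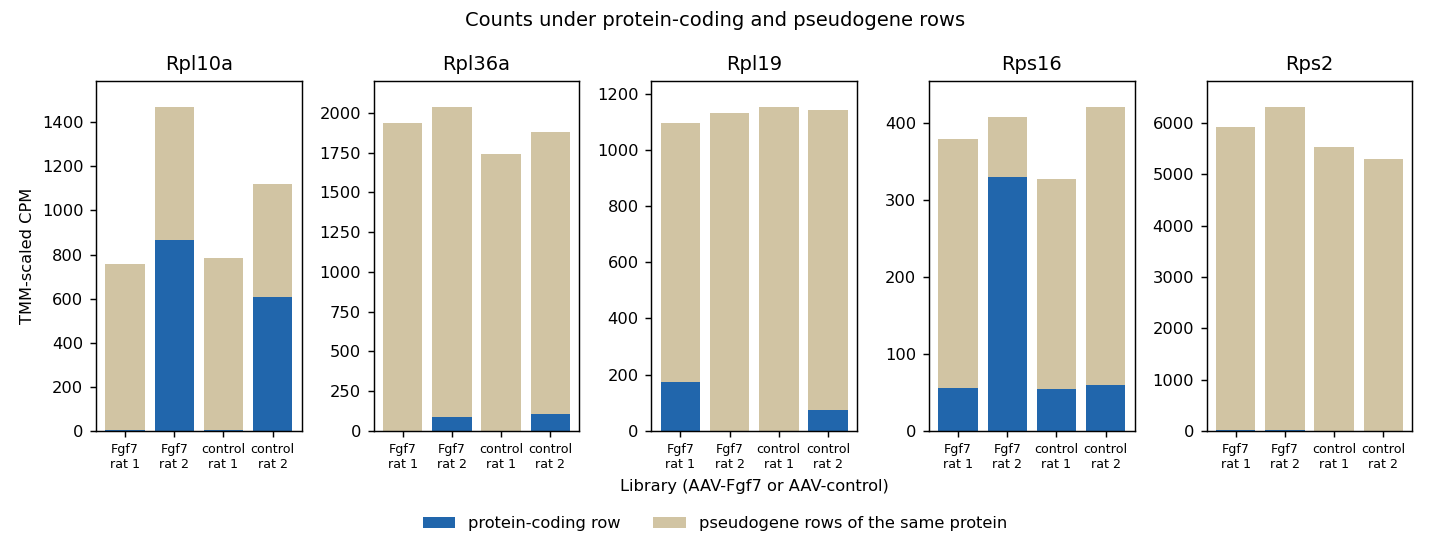
TMM-scaled CPM under the protein-coding entry (blue) and under the named pseudogene entries of the same protein (tan), stacked, in the 4 libraries, for the 5 on-off genes with counted pseudogenes. The stacks of Rpl36a, Rpl19 and Rps2 have near-equal heights, that of Rps16 changes its make-up in the AAV-Fgf7 ear of rat 2, and that of Rpl10a is taller in rat 2.

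Over all proteins, 37 sums had 100 counts or more in every library, their median ratio of the highest to the lowest library was 1.19, and 29 spanned less than 1.5-fold. The other 8 were Rpl32, Rpl10a, Rps14, Rpl28, Rpsa, Rpl12, Rps18 and Rpl17. The following genes were chosen after their values were seen. Rpl28, a large-subunit protein, and its pseudogene differed between the rats in the same direction. Rpl28 had 488 and 505 counts in the AAV-Fgf7 and AAV-control ears of rat 2, against 265 and 280 in rat 1, and Rpl28-ps1 had 947 and 1003 in rat 2, against 600 and 643 in rat 1. Rps24, a small-subunit protein, had 54 and 52 counts in the AAV-Fgf7 and AAV-control ears of rat 2, against 106 and 89 in rat 1, and Rps24-ps3 had 584 and 586, against 764 and 737. Rpl17-ps10 had 2989 and 2784 counts in the AAV-Fgf7 and AAV-control ears of rat 2, against 1484 and 1683 in rat 1, while Rpl17 itself had 2 counts in the AAV-control ear of rat 1 and 0 elsewhere. These were the 5 entries of ribosomal proteins, of 63 with 50 counts or more in every library, in which the rats differed at least 1.3-fold the same way under both viruses, beside 2.86% of 2835 such entries of the whole table. Within each of the Rpl28 and Rps24 pairs the entries can share reads and are not separate observations. Rpsa, a small-subunit protein also known as the laminin receptor, varied by neither label, with 464 and 132 counts in AAV-Fgf7 ears and 244 and 641 in AAV-control ears. Over the 42 tested members, both libraries of rat 2 lay above both of rat 1 in 8, beside 13.7% of all genes tested, and below them in 4, beside 13.6%. By neither label, the AAV-Fgf7 ear of rat 1 and the AAV-control ear of rat 2 lay above the others in 6, beside 22.5%, and below them in 9, beside 22.1%.

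The paralogs, taken by the ending of their symbols, were few in counts, apart from Rpl22l1. Rpl22l1, the paralog of Rpl22, had 931 and 1081 counts in AAV-Fgf7 ears and 765 and 1103 in AAV-control ears, and the groups overlapped. Rpl3l, the form of Rpl3 used in skeletal and heart muscle, had 7 and 5 counts in AAV-Fgf7 ears and 5 and 15 in AAV-control ears. It was highest in the AAV-control ear of rat 2, which also held the highest sum of skeletal muscle markers, and the part of muscle in this was not tested. Rps27l, a paralog of Rps27 that p53 induces, had 16 and 18 counts in AAV-Fgf7 ears and 24 and 11 in AAV-control ears, and the groups overlapped. Rpl7l1 had 0 and 5 counts in AAV-Fgf7 ears and 0 in both AAV-control ears, and Rpl10l and Rpl39l were listed at 0.

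Other genes of the translation machinery were listed beside the family, and those named were picked after their values were seen. Of 66 with 12 counts or more in a library, 0 had an on-off pattern, which is near the 1.67% of protein-coding genes. Rack1, a scaffold on the small subunit, had 4263 and 4965 counts in AAV-Fgf7 ears and 4070 and 4475 in AAV-control ears, and Fau, whose product carries a ribosomal protein fused to a ubiquitin-like part, had 1477 and 1714 counts in AAV-Fgf7 ears and 1339 and 1765 in AAV-control ears. Of 5 tested elongation factors, 12 mitochondrial ribosomal proteins, 36 initiation factors and 7 genes of ribosome assembly, 0 had an edgeR adjusted p under 0.05. Their median log2 fold changes were 0.02, 0.22, 0.06 and 0.48. Eef1a1, the main elongation factor, had 9596 and 11640 counts in AAV-Fgf7 ears and 9571 and 11030 in AAV-control ears. Among the assembly genes, 5 had a log2 fold change above 0 and 2 below. Nop56, a core protein of the particles that modify ribosomal RNA, had 65 and 64 counts in AAV-Fgf7 ears and 39 and 34 in AAV-control ears (log2 fold change 0.79, SE 0.31, unadjusted p = 0.0449 and adjusted p = 0.9996 by edgeR). Fbl, the methyltransferase of those particles, had 103 and 177 counts in AAV-Fgf7 ears and 89 and 76 in AAV-control ears. Beside these values, the summed basal keratinocyte markers of both AAV-Fgf7 ears also lay above those of both AAV-control ears, and their part in them was not tested.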

How the data were processed

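Counts per gene and FPKM values were deposited by the authors for 2 AAV-Fgf7 and 2 AAV-control libraries. Per the submitters' processing notes the build was Rnor_6.0 (rn6), whereas both deposited tables carry mouse Ensembl identifiers and coordinates. Neither the mouse build nor the aligner or counter could be stated: not given in the sources used here. FPKM, scaled by the authors by gene length and library total, served to compare levels between genes. The authors' group means were not used.

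Counts were filtered with filterByExpr (6370 genes kept), scaled with TMM (0.948 to 1.03) and tested with edgeR 4.0.16 in R 4.3.3 (glmQLFit, glmQLFTest, two-sided, Benjamini-Hochberg adjustment over all genes, threshold 0.05). The standard error is the log2 fold change over the root of F. DESeq2 1.42.0 and limma 3.58.1 were alternatives. The scripts were tested on simulated data. CPM are TMM-scaled.

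The members, lists and rules were chosen with earlier results of these data known. Named by rule were the on-off genes, the 3 of lowest p in each direction, the 5 of highest mean FPKM, the paralogs, and the genes beside the 4-fold limit. Some genes are not reported here by name and are held in the counts and sums. Pseudogenes were assigned by name or description. Same-numbered libraries come from the same rat, so the numbers pair them. Their deviations from the group means correlated at r = -0.30 (Spearman -0.26) across the 6370 genes and at r = 0.45 (Spearman 0.12) across the 42 tested members, as a description. Reads carry no molecular identifiers, and totals of 1299136 to 1601321 counts limit the precision of low genes.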

Additional observations from a re-analysis of the deposited data

Results flagged for a closer look

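A set of 4 tested ribosomal protein genes is listed because AAV-Fgf7 and AAV-control differed at least 1.5-fold in each rat, and in opposite ways (libraries set to at least 3 counts). Over all genes tested this held for 702 of 6370, so it is not particular to the family. AAV-Fgf7 minus AAV-control was 172 CPM in rat 1 and -73.9 CPM in rat 2 for Rpl19, and 142 CPM in rat 1 and -335 CPM in rat 2 for Rpsa. It was -6.92 CPM in rat 1 and 5.14 CPM in rat 2 for Rps27l, and 7.997 CPM in rat 1 and -9.98 CPM in rat 2 for Rpl8. Each value rests on 1 pair of ears, and the difference between the rats was not tested. Below that limit in rat 1, Rpl32 had ratios of AAV-Fgf7 to AAV-control of 0.805 in rat 1 and 3.03 in rat 2.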

How the results depend on the processing

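The crossed replicate block was chosen after seeing the data. The edgeR count of 0 called genes and 0 called ribosomal protein genes was also found under RLE factors, with unscaled totals, at a mean count of at least 10 and by limma-voom. It was 0 as well with the rat as a replicate block, where 75 genes had an unadjusted p under 0.05, and with a crossed replicate block, where 301 had. Without the low-count filter edgeR called 3 genes and DESeq2 called 4, none of them a ribosomal protein gene. When each library was left out in turn, 0 to 59 genes were called, and 0 to 2 ribosomal protein genes, with the calls arising without either AAV-control library. The cause was not tested.

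The 7 on-off genes became 18 at a 2-fold gap (3 by virus, 5 by rat, 9 by a single library) and 13 with a floor of 1 count (8 by a single library). At 8-fold and at 16-fold gaps there were 5, with 0 by virus and 1 by a single library. With a floor of 10 counts 0 were by virus, and with library totals only 2 were. With pseudogene entries 2 were left, 0 by virus, 1 by rat, 0 by neither and 1 by a single library. To these 2 genes no named pseudogene entry could be added, and in the other 5 the size of the pseudogene counts fixed the loss in advance. Leaving out a library gave 7 to 9. At 8-fold and 16-fold the counts by rat and by neither were still 3 and 1.

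With pseudogene entries the summed level was 51869 and 56176 CPM in AAV-Fgf7 ears and 54580 and 53882 CPM in AAV-control ears. Scaled by library totals alone, without pseudogene entries, it was 26288 and 24162 CPM in the AAV-control ears.

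Of 16 named genes tested, 152 of 160 fold changes under alternatives that kept all libraries had the direction of the main fit. The exceptions were Rpl19 with limma-voom (-0.52) and log2(FPKM + 0.1) (-0.92), Rps9 with log2(FPKM + 0.1) (-0.0892), Rplp2 with library totals (0.0083), and Rps27l with limma-voom (0.0794), the replicate block (0.0046), log2(FPKM + 1) (0.0220) and log2(FPKM + 0.1) (0.0323). Leaving out a library turned 13 of 64. The ranges were -6.14 to 7.12 for Rpl10a, -9.22 to 8.96 for Rpl36a, -8.75 to 6.67 for Rpl19, -4.00 to 3.79 for Rps9, -0.0572 to 2.52 for Rps16, -0.12 to 0.0381 for Rplp2, -0.18 to 0.00056 for Rpl10, -0.0625 to 0.28 for Rpl22l1 and -0.61 to 0.69 for Rps27l. For Rpl10a, Rpl36a and Rps9 the turns follow from the design, since leaving out 1 ear sets an ear of 1 rat against ears of both. For the others the cause was not tested.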

Other observations

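Outside the listed ribosomal protein genes and their named pseudogenes, few entries switched with the rat. These genes were chosen after their values were seen. Among protein-coding genes the other one was Elob, a subunit of ubiquitin ligases, with 70 and 47 counts in the AAV-Fgf7 and AAV-control ears of rat 2, against 9 and 6 in those of rat 1. Among 533 entries of other biotypes with 12 counts or more in a library, 8 had an on-off pattern, 3 of them by rat and 0 by virus. All 3 were processed pseudogenes with no named parent, so whether they are copies of ribosomal protein genes is not known. Gm10268 had 20 and 14 counts in the AAV-Fgf7 and AAV-control ears of rat 2, against 207 and 189 in rat 1. Gm5905 had 3 and 1 in rat 2, against 99 and 84 in rat 1, and Gm48432 had 0 and 2 in rat 2, against 30 and 37 in rat 1.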
